A study of Mus musculus with 6 samples.

Results

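The mitochondrial ribosomal proteins are the nuclear-encoded proteins of the mitoribosome, and their genes were taken here as all protein-coding rows of the deposited liver table whose symbol starts with *Mrpl* or *Mrps*. This rule gave 78 of 21297 genes, 49 named *Mrpl* and 29 named *Mrps*, spread over 17 chromosomes. Whole liver of male C57BL/6J mice was compared by RNA-seq after treatment with MMAB ASO (n = 3) or CON ASO (n = 3). Antisense oligonucleotides (ASO) bind a chosen RNA by base pairing and reduce its amount, and the CON ASO is the control oligonucleotide, so both groups carry an oligonucleotide and there was no untreated group. All mice were 8 weeks old at the start, were kept on chow and had 1 intraperitoneal injection of 50 mg/kg each week for 6 weeks, with livers taken 48 h after the last. In each group the libraries are numbered 1, 2 and 4, and each is from a separate mouse.

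The mitoribosome sits in the mitochondrial matrix and translates the few mRNAs encoded by mitochondrial DNA, all of which code for subunits of the oxidative phosphorylation complexes. Its large subunit joins amino acids, its small subunit reads the mRNA, and both are built from mitochondrial rRNAs and from proteins made in the cytosol and imported. MMAB converts vitamin B12 to adenosylcobalamin, the cofactor of methylmalonyl-CoA mutase in the same compartment. Hepatocytes are rich in mitochondria, and the question asked of these genes is whether the machinery for mitochondrial translation differed at the RNA level when MMAB was lowered.

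Levels are given as CPM, counts scaled by the authors to 1000000 per library, and log2 fold changes as MMAB ASO over CON ASO on the deposited log2 scale. *Mmab* itself had 1.87, 2.69 and 1.80 CPM in MMAB ASO replicates 1, 2 and 4, against 6.31, 5.30 and 6.83 CPM in CON ASO replicates 1, 2 and 4. Its log2 fold change was -1.55 (standard error, SE, 0.21, limma adjusted p = 0.00225), and the groups did not overlap, as the labels imply. The steps between the lowest values of the table correspond to 44.7 to 49.3 M reads in MMAB ASO libraries and 45.6 to 55.3 M in CON ASO libraries. The deposited rows summed to 659038, 665448 and 635147 CPM in MMAB ASO replicates 1, 2 and 4. In CON ASO replicates 1, 2 and 4 they summed to 682884, 670260 and 674203 CPM. Part of each total of 1000000 thus lay outside these rows, and every MMAB ASO sum was below every CON ASO sum. CON ASO replicate 1 stood apart, with 57.0% of its total in protein-coding genes, against 46.2% to 51.1% in the other 5 libraries. Of 11565 tested genes, limma called 473 at an adjusted p under 0.05 (4.09%), 216 higher (1.87%) and 257 lower (2.22%) in MMAB ASO livers. This split was 161 higher and 311 lower under median-ratio scaling, and 416 higher and 217 lower with each library scaled to its protein-coding sum. Hepatocyte markers summed to 54176 to 68713 CPM in MMAB ASO livers and 63124 to 74468 CPM in CON ASO livers, and 0 of 12 were higher and 1 lower. Among markers of other cell types, 7 of 10 endothelial, 6 of 10 stellate cell, 2 of 9 Kupffer cell, 1 of 2 cholangiocyte and 0 of 2 blood cell genes were called, all of them higher in MMAB ASO livers. The Kupffer cell gene *Marco*, which was not called, had 0.426, 0.134 and 0.380 CPM in MMAB ASO livers and 15.7, 0.813 and 0.805 CPM in CON ASO livers.

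None of the 77 tested mitochondrial ribosomal protein genes was called in either direction at an adjusted p under 0.05 from limma, where 4.09% of all tested genes were. At an unadjusted p under 0.05 there were 2 such genes, *Mrpl22* and *Mrpl19*, against 17.8% of all tested genes. At the thresholds used by the study, with the unadjusted p at or under 0.05 and the change 1.5-fold or more, there were 0, against 9.07% of all tested genes. Their log2 fold changes ran from -0.39 (*Mrpl48*) to 0.36 (*Mrps36*), folds of 0.763 and 1.28. The median was 0.04, with 49 of 77 above 0, and the median of all tested genes was 0.03, with 55.6% above 0.

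The 95% intervals give the precision of each estimate on the deposited scaling. They were not counted under other scalings, and each covers 1 gene at a time. The 95% interval of the log2 fold change lay inside a 1.5-fold difference either way for 67 of 77 genes (87.0%), against 53.2% of all tested genes. It lay inside a 2-fold difference for all 77, against 85.9% of all tested genes. The outermost bounds were -0.79, for *Mrpl48*, and 0.80, for *Mrps36*. A missed threshold does not show that the levels were equal. In whole liver, fewer cells of a type and less RNA per cell cannot be told apart.

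**Figure D1:**
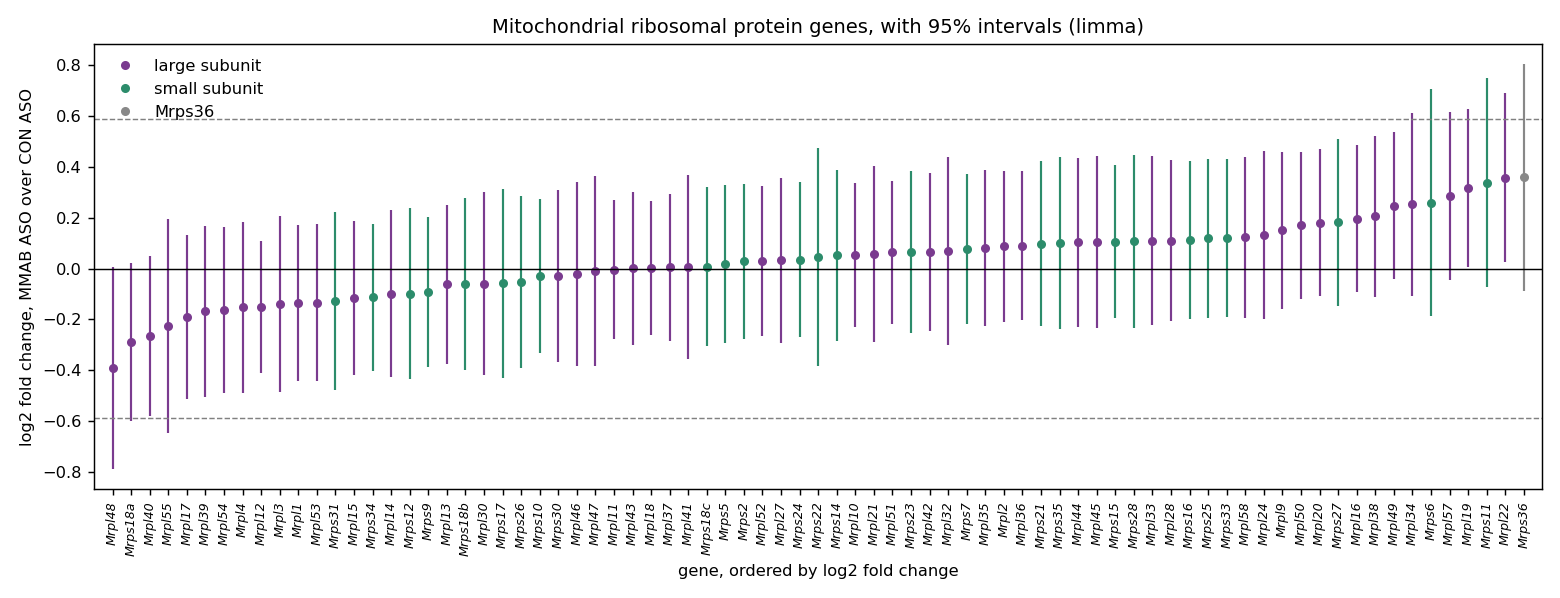
Log2 fold change of MMAB ASO over CON ASO for the 77 tested genes, ordered from *Mrpl48* (-0.39) to *Mrps36* (0.36); points are limma estimates from 3 libraries in each group and vertical lines are 95% intervals. The dashed lines mark a 1.5-fold difference, and no estimate reaches either line.

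Some of these genes share nearly all of their coding sequence with processed pseudogenes, and the level of such a gene depends on how its reads were shared out. The pairs given here are those in which the pseudogene had 50% or more of the level of its gene. Stretches of 120 bases of the coding sequence, written 5′ to 3′ from GENCODE M21 transcripts on GRCm38, stand beside the same stretches of the pseudogenes, with capitals at the bases that differ within a pair. Each is the stretch without a gap, within the aligned part of a pair, that holds the most differences. Other such stretches of the aligned part hold as many differences or fewer. Bases outside the alignment and stretches with a gap were not compared in this way. In *Mrpl48* the stretch holds 7 of the 12 differences.
*Mrpl23*: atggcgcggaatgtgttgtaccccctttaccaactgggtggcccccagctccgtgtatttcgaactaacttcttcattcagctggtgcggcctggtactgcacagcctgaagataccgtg
*Mrpl23-ps1*: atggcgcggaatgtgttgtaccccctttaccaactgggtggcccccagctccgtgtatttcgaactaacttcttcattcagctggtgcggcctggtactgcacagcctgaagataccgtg
*Mrpl48*: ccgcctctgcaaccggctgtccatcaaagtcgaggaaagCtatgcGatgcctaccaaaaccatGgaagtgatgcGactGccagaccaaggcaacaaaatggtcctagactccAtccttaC
*Mrpl48-ps*: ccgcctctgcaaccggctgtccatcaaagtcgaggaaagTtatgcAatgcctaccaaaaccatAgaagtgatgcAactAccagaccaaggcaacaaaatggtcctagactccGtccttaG
*Mrps5*: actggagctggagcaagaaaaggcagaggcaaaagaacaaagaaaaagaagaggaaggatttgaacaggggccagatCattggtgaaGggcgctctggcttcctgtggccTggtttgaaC
*Gm13328*: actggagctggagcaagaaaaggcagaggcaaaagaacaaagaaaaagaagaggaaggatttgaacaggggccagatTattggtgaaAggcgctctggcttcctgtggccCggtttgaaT
The whole coding sequence of *Mrpl23*, 438 bases, was identical in *Mrpl23-ps1*, so no read from it can be assigned by sequence. Identity was 98.1% over all 633 coding bases for *Mrpl48-ps* and 98.4% over 78.2% of the coding sequence of *Mrps5* for *Gm13328*.

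*Mrpl23*, whose bacterial counterpart lies at the exit of the nascent chain tunnel, had 0.294, 0.520 and 0.578 CPM in MMAB ASO replicates 1, 2 and 4, against 0.536, 0.502 and 0.274 CPM in CON ASO replicates 1, 2 and 4. It was the only gene of the 78 under the filter of a mean of 1 CPM, and was therefore not tested. Its pseudogene *Mrpl23-ps1*, on chr2:74591330-74591909, had 9.67, 8.25 and 9.11 CPM in MMAB ASO livers, against 9.32, 9.05 and 8.68 CPM in CON ASO livers. The pseudogene thus stood 20-fold above the gene, which lies on chr7:142532686-142540747. Summed, the pair had 9.47 ± 0.624 CPM in MMAB ASO livers and 9.45 ± 0.462 CPM in CON ASO livers (SD, n = 3 each), with a log2 fold change of 0.0021 and a 95% interval from -0.29 to 0.30.

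*Mrpl48-ps* had 2.56, 2.87 and 2.24 CPM in MMAB ASO livers and 2.92, 3.18 and 2.96 CPM in CON ASO livers, 0.652 times the level of *Mrpl48* on average. *Gm13328* had 8.53, 8.29 and 8.09 CPM in MMAB ASO livers and 7.18, 7.74 and 7.46 CPM in CON ASO livers, 0.623 times the level of *Mrps5*, a small subunit protein. In all, 24 of the 78 genes had a processed pseudogene at 90% identity or more over at least 50% of the coding sequence, and 20 had one in the table. Most copies were low: 12 of 23 stood under 5% of their gene. With the copies added to their genes, a choice made after the values were seen, 78 genes could be tested and 0 were called, and no log2 fold change of the 77 genes tested alone moved by more than 0.07.

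**Figure D2:**
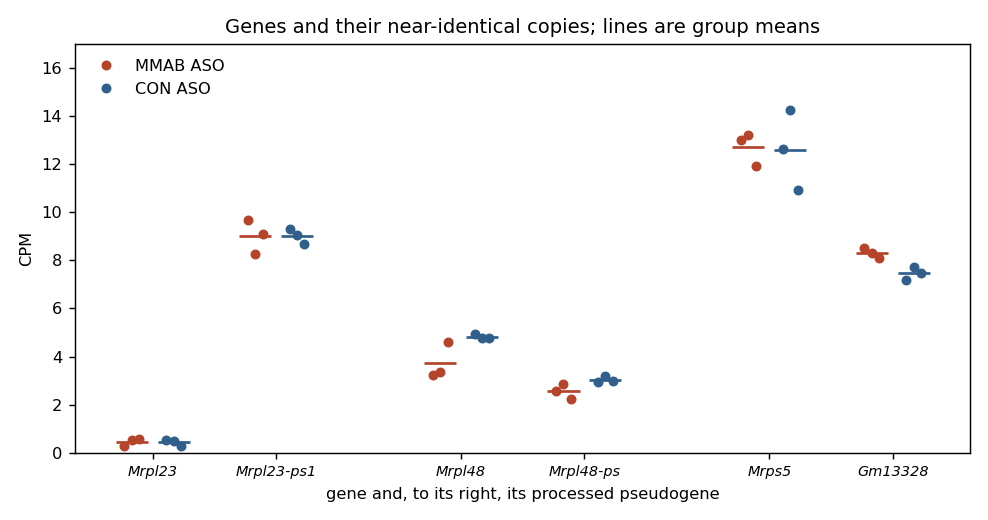
CPM of 3 genes, each with its processed pseudogene to its right, in MMAB ASO (red) and CON ASO (blue) libraries; points are libraries and lines are means of 3. *Mrpl23-ps1* lies at 8.25 to 9.67 CPM while *Mrpl23* stays under 0.6.

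The large subunit holds 51 of the 78 proteins, *Mrps30* and *Mrps18a* among them in spite of their symbols. Of its 50 tested genes 0 were called (2 at an unadjusted p under 0.05, limma), the median log2 fold change was 0.03, and 30 were above 0. Among all tested genes 4.09% were called, 17.8% had an unadjusted p under 0.05 (limma) and 55.6% were above 0. All 8 genes whose groups did not overlap were of this subunit, 5 with every MMAB ASO value above every CON ASO value and 3 below. Over all tested genes, 13.8% lay wholly above and 8.91% wholly below. Both directions together made up 16% of the 50, 10.4% of the 77 and 22.7% of all tested genes.

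*Mrpl22*, a protein that lines the nascent chain tunnel, had the smallest p of the 77. It had 6.51, 8.08 and 6.80 CPM in MMAB ASO replicates 1, 2 and 4, against 5.64, 5.67 and 5.33 CPM in CON ASO replicates 1, 2 and 4. The lowest MMAB ASO library lay above the highest CON ASO library, with a log2 fold change of 0.36 (SE 0.15, limma adjusted p = 0.247). *Mrpl19*, a large subunit protein with a bacterial counterpart, had 10.7, 11.4 and 10.2 CPM in MMAB ASO livers and 9.04, 9.39 and 7.59 CPM in CON ASO livers. The groups were again apart, at a log2 fold change of 0.32 (SE 0.14, limma adjusted p = 0.275). An exact two-sided permutation test gave p = 0.1 for each of both genes, the smallest that 3 libraries against 3 allow.

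*Mrpl57*, a protein of the mitochondrial large subunit without a bacterial counterpart, had 8.02, 7.55 and 7.83 CPM in MMAB ASO livers and 7.32, 5.66 and 6.33 CPM in CON ASO livers. Its log2 fold change was 0.29 (SE 0.15, limma adjusted p = 0.355). *Mrpl49*, likewise specific to mitochondria, had 12.4, 15.1 and 14.0 CPM in MMAB ASO livers and 11.2, 11.9 and 11.8 CPM in CON ASO livers. *Mrpl58*, a peptidyl-tRNA hydrolase that frees stalled mitoribosomes and is built into the large subunit, had 6.99, 6.74 and 6.85 CPM in MMAB ASO livers and 6.53, 6.68 and 5.73 CPM in CON ASO livers. In *Mrpl58* the gap between the groups was narrow, and its log2 fold change of 0.12 had a 95% interval from -0.19 to 0.44.

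The lowest log2 fold changes were those of *Mrpl48*, *Mrps18a* and *Mrpl40*. *Mrpl48*, of the central protuberance, had 3.22, 3.36 and 4.598 CPM in MMAB ASO replicates 1, 2 and 4, against 4.92, 4.78 and 4.77 CPM in CON ASO replicates 1, 2 and 4. MMAB ASO replicates 1 and 2 were low, and replicate 4 lay just below the CON ASO libraries. The log2 fold change was -0.39 (SE 0.18, limma adjusted p = 0.288). With *Mrpl48-ps* added, the summed pair had 6.28 ± 0.532 CPM in MMAB ASO livers and 7.84 ± 0.116 CPM in CON ASO livers (SD, n = 3 each), at -0.32 (limma adjusted p = 0.263).

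*Mrpl40*, also of the central protuberance, had 5.81, 5.81 and 5.94 CPM in MMAB ASO livers and 7.53, 6.50 and 7.13 CPM in CON ASO livers. The MMAB ASO libraries lay close together and below all CON ASO libraries, at a log2 fold change of -0.27 (SE 0.14, limma adjusted p = 0.369). *Mrpl55* and *Mrpl17*, both with bacterial counterparts, were next, at -0.23 and -0.19. *Mrpl55* had 4.02, 4.25 and 2.91 CPM in MMAB ASO livers and 4.79, 3.88 and 4.28 CPM in CON ASO livers. *Mrpl17* had 10.4, 13.5 and 10.5 CPM in MMAB ASO livers and 14.04, 13.02 and 11.98 CPM in CON ASO livers. In both genes the groups overlapped. *Mrpl46*, a further protein of the central protuberance, had a log2 fold change of -0.02 and groups that overlapped.

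**Figure D3:**
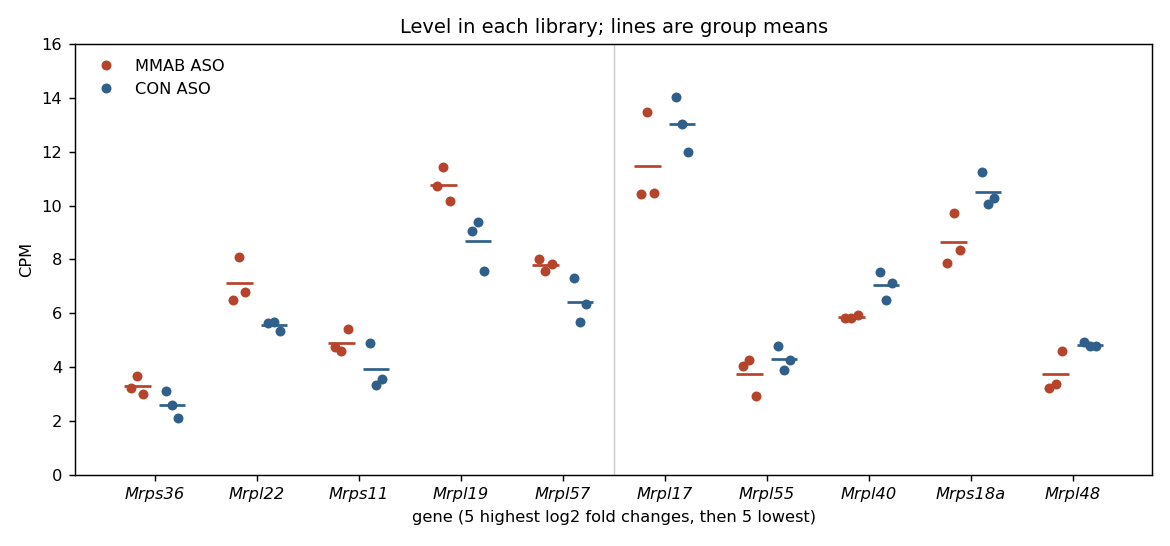
CPM in each library for the 5 highest log2 fold changes (left) and the 5 lowest (right), with MMAB ASO in red and CON ASO in blue; points are libraries and lines are means of 3. The groups are apart in *Mrpl22*, *Mrpl19*, *Mrpl57*, *Mrpl40*, *Mrps18a* and *Mrpl48* and overlap in the other 4.

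*Mrps18a* is 1 of 3 paralogs related to a single bacterial small subunit protein, and its product is found in the large subunit. It had 7.86, 9.73 and 8.35 CPM in MMAB ASO livers, against 11.2, 10.1 and 10.3 CPM in CON ASO livers, so that all 3 MMAB ASO libraries were lower (log2 fold change -0.29, SE 0.14, limma adjusted p = 0.321). *Mrps18b*, of the small subunit, had 25.5, 26.9 and 20.1 CPM in MMAB ASO livers and 27.1, 27.4 and 21.1 CPM in CON ASO livers, at a log2 fold change of -0.06. *Mrps18c*, also of the small subunit, had 7.76, 7.89 and 6.64 CPM in MMAB ASO livers and 7.53, 7.35 and 7.23 CPM in CON ASO livers, at 0.01. The groups overlapped in both small subunit paralogs. Whether the paralogs differed from each other in their response was not tested.

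The small subunit holds 26 of the 78 proteins, and 0 of its 26 genes were called (0 at an unadjusted p under 0.05, limma). The median log2 fold change was 0.05, 18 were above 0, and in none were the groups apart. Among all tested genes 4.09% were called and 17.8% had an unadjusted p under 0.05 (limma). Of the same genes 55.6% were above 0 and 22.7% had groups that were apart. No test compared the 2 subunits. *Mrps11*, a protein of the platform, had the highest log2 fold change of the subunit, 0.34 (SE 0.19, limma adjusted p = 0.384). It had 4.73, 4.58 and 5.41 CPM in MMAB ASO livers and 4.91, 3.33 and 3.56 CPM in CON ASO livers, with CON ASO replicate 1 inside the MMAB ASO range. *Mrps12*, of the decoding centre, had 8.94, 8.45 and 6.88 CPM in MMAB ASO livers and 9.25, 8.77 and 7.86 CPM in CON ASO livers, at -0.10. *Mrps22*, a mitochondria-specific protein, had the largest ratio of highest to lowest library of the 77 tested genes. It had 5.96, 10.7 and 7.42 CPM in MMAB ASO livers and 7.48, 7.46 and 7.76 CPM in CON ASO livers, so that the spread lay in the MMAB ASO group and the log2 fold change was 0.04.

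*Mrps36* carries a mitoribosome symbol, but its product is a component of the alpha-ketoglutarate dehydrogenase complex of the citric acid cycle. It had the highest log2 fold change, 0.36 (SE 0.20, limma adjusted p = 0.397). It had 3.23, 3.68 and 3.005 CPM in MMAB ASO livers and 3.10, 2.61 and 2.10 CPM in CON ASO livers. MMAB ASO replicate 4 lay below CON ASO replicate 1, so the groups overlapped. *Mrps30*, a large subunit protein, had 11.95, 12.97 and 13.12 CPM in MMAB ASO livers and 16.01, 12.06 and 11.20 CPM in CON ASO livers, at -0.03.

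Proteins with and without a bacterial counterpart had like medians. The 47 tested genes with one had a median log2 fold change of 0.04 and 29 above 0 (61.7%). The 29 without one had a median of 0.04 and 19 above 0 (65.5%), against 55.6% of all tested genes above 0. The genes ranged 47.2-fold in level per kilobase of exon sequence among those tested. The highest levels per kilobase were those of *Mrpl12*, a protein of the ribosomal stalk (36.9 CPM per kilobase), *Mrpl20* (25.7) and *Mrpl34* (25.6), all of the large subunit. The lowest were those of *Mrpl23* (0.467), *Mrpl48* (0.782) and *Mrpl3* (1.05). The levels of *Mrpl23* and *Mrpl48* depend on how reads were shared with their pseudogenes. *Mrpl23-ps1* held 95.1% of its pair in MMAB ASO livers and 95.4% in CON ASO livers. *Mrpl48-ps* held 41.0% of its pair in MMAB ASO livers and 38.5% in CON ASO livers. *Mrpl48* is the low end of the 47.2-fold range. Lengths are the union of the exons of all annotated protein-coding transcripts of a gene, which counts long isoforms in full.

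*Mrpl12* had 46.2, 48.8 and 43.0 CPM in MMAB ASO livers and 53.3, 52.6 and 47.3 CPM in CON ASO livers, and MMAB ASO replicate 2 lay above CON ASO replicate 4. Its log2 fold change was -0.15 (SE 0.12, limma adjusted p = 0.567). *Mrpl20*, a large subunit protein, had 25.5, 27.7 and 22.6 CPM in MMAB ASO livers and 24.6, 21.5 and 20.7 CPM in CON ASO livers, at 0.18. *Mrpl34* had 14.6, 20.3 and 15.9 CPM in MMAB ASO livers and 15.0, 15.8 and 11.8 CPM in CON ASO livers, at 0.25. *Mrpl3* had 5.67, 5.22 and 4.74 CPM in MMAB ASO livers and 6.37, 5.44 and 5.41 CPM in CON ASO livers, at -0.14. In each of these genes the groups overlapped.

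The genes moved with the general level of each library. The median deviation of the 77 genes from their CON ASO mean was 0.03, 0.11 and -0.03 on the log2 scale in MMAB ASO replicates 1, 2 and 4, and 0.12, -0.0032 and -0.11 in CON ASO replicates 1, 2 and 4. The same medians over all tested genes were 0.01, 0.10 and -0.02 in MMAB ASO livers and 0.13, -0.01 and -0.11 in CON ASO livers. In no library did the 2 medians differ by more than 0.02. MMAB ASO replicate 2 held the highest value for 29 of the 77 genes (37.7%, against 26.2% of all tested genes) and CON ASO replicate 1 for 34 (44.2%, against 34.2%). CON ASO replicate 4 held the lowest value for 34 (44.2%, against 33.1% of all tested genes).

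**Figure D4:**
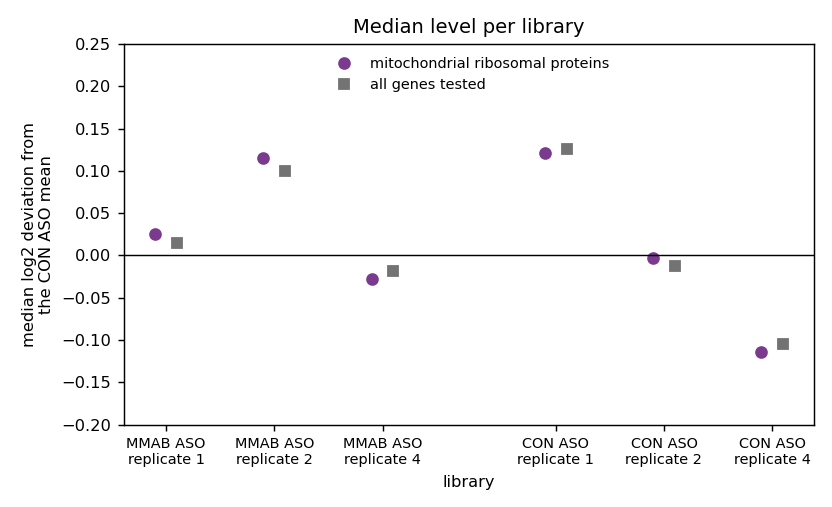
Median log2 deviation from the CON ASO mean in each library, for the 77 tested genes (circles) and all 11565 tested genes (squares). Both sets move together, from -0.11 in CON ASO replicate 4 to 0.12 and 0.13 in CON ASO replicate 1.

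Summed over all 78 genes, mitochondrial ribosomal proteins took 972, 1066 and 942 CPM in MMAB ASO replicates 1, 2 and 4, against 1056, 974 and 892 CPM in CON ASO replicates 1, 2 and 4. The means were 993 ± 64.6 CPM in MMAB ASO livers and 974 ± 81.6 CPM in CON ASO livers (SD, n = 3 each), and the groups overlapped. Per 1000000 CPM of protein-coding genes the sums were 2009, 2086 and 2041 in MMAB ASO livers and 1852, 1974 and 1828 in CON ASO livers, which no longer overlapped. With each library scaled to its protein-coding sum, 24 of the 77 genes lay wholly above and 2 wholly below, against 25.02% and 7.14% of all tested genes, and 0 were called. The median log2 fold change of the 77 was then 0.13, and that of all tested genes was 0.12.

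Many of these genes share a start region or overlap a neighbour. A protein-coding gene on the opposite strand began within 1000 bases upstream of 18 of the 78 genes (23.1%). The share was 9.04% among all protein-coding genes of the table, those under the filter included. Such partners of the 78 genes include *Sars2*, the mitochondrial seryl-tRNA synthetase, beside *Mrps12*, *Twnk*, the mitochondrial DNA helicase, beside *Mrpl43*, and *Psma2*, a proteasome subunit, beside *Mrpl32*. Of 16 partners tested, 1 was called, against 4.09% of all tested genes. This was *Pnpla7*, 935 bases from *Mrpl41*, at 28.8 CPM in MMAB ASO livers and 47.2 CPM in CON ASO livers. *Mrpl41* was at 9.61 CPM in MMAB ASO livers and 9.53 CPM in CON ASO livers. The call of *Pnpla7* stood at a limma adjusted p of 0.0491. It was lost without MMAB ASO replicate 1 or 4 or CON ASO replicate 1 or 4, and under each of the 3 other scalings. It was also lost without a filter, with a filter of 5 CPM and with no trend. The rows of 35 genes overlap another row of the table, such as *Mrps11* with *Mrpl46*, *Mrpl48* with *Rab6a*, *Mrps18a* with *Rsph9*, *Mrpl19* with *Gcfc2* and *Mrps6* with *Slc5a3*. Whether counting used the strand is not given in the sources used here, so reads from overlapping rows may have been shared.

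The promoters of mitochondrial ribosomal protein genes were searched for the letters of known activator motifs. RefSeq promoters on GRCm38.p6, 250 bases before to 50 after the start, were at hand for 69 of the 78 genes and for 11302 protein-coding genes of the table. CCGGAAG, a core of ETS factors such as GABPA, was on either strand in 26 of 69 (37.7%), against 18.1% of all. AAGATGGC, the core of YY1, was in 12 of 69 (17.4%), against 4.76%, and GCGCATGC, the core of NRF1, in 8 of 69 (11.6%), against 5.40%. The ETS and YY1 letters can overlap in their AAG. GABPA, YY1 and NRF1 are known activators of nuclear genes for mitochondria. A match is a description of these letters and not a binding site. The comparison genes included genes under the filter, and shares among tested genes alone were not computed. Sequences just upstream of the start of a gene from each end of the range are shown here with the matches in capitals. They come from chr11:58171571-58171660 (plus strand) for *Mrpl22* and chr17:46110938-46110985 (plus strand) for *Mrps18a*. The stretches overlap no annotated exon, and the YY1 letters also found for *Mrps18a* lie outside its stretch.
*Mrpl22*: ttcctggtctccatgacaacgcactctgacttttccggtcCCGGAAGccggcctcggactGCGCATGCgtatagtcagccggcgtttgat
*Mrps18a*: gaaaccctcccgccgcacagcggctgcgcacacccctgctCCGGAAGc

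The other genes of mitochondrial translation were taken from lists. Counts at an unadjusted p under 0.05 (limma) stand in brackets beside the calls. Among all tested genes the shares were 4.09% called and 17.8% at an unadjusted p under 0.05 (limma). Of 5 tested mitoribosome proteins with other symbols 0 were called (2), and the median was -0.12. *Aurkaip1*, a small subunit protein, had the smallest p, with 10.1, 11.6 and 12.8 CPM in MMAB ASO livers and 15.8, 14.4 and 13.4 CPM in CON ASO livers (log2 fold change -0.34, limma adjusted p = 0.233). Of 15 translation factors 0 were called (3), with a median of 0.04. *Gfm2*, the factor that splits mitoribosomes after translation, had 17.01, 19.2 and 12.3 CPM in MMAB ASO livers and 11.6, 12.3 and 10.6 CPM in CON ASO livers, at 0.47 (limma adjusted p = 0.162).

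Of 20 mitochondrial aminoacyl-tRNA synthetases and related enzymes, which charge tRNAs, 0 were called (2) and the median was 0.10. *Vars2*, the valyl-tRNA synthetase, had 9.74, 9.98 and 11.0 CPM in MMAB ASO livers and 8.12, 6.58 and 6.53 CPM in CON ASO livers, at 0.54 (limma adjusted p = 0.0674). It was called in the fit without CON ASO replicate 1. *Lars2*, the leucyl-tRNA synthetase, chosen here after its values were seen, had 2575, 3181 and 3527 CPM in MMAB ASO livers and 668, 2128 and 2644 CPM in CON ASO livers. The next highest gene of that list, *Iars2*, averaged 34.2 CPM in MMAB ASO livers and 34.8 CPM in CON ASO livers. CON ASO replicate 1 was the lowest library for *Lars2*, whose log2 fold change was 0.98 (SE 0.40, limma adjusted p = 0.221). The same library had the highest share of its total in protein-coding genes, 57.0%. Whether the reads counted for *Lars2* all come from its mRNA was not tested, so these values may not give its mRNA level.

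Of 25 assembly and rRNA modification genes 0 were called (3), with a median of 0.07. *Mettl15*, the methyltransferase of the small subunit rRNA, had 1.92, 2.01 and 2.06 CPM in MMAB ASO livers and 1.01, 1.10 and 1.28 CPM in CON ASO livers, at 0.83 (limma adjusted p = 0.0707). Of 12 genes of mitochondrial transcription and RNA stability 0 were called (3), with a median of 0.09. *Pnpt1*, the polynucleotide phosphorylase, was at 0.43 (limma adjusted p = 0.185), with 6.80, 8.52 and 7.01 CPM in MMAB ASO livers and 6.03, 4.80 and 5.72 CPM in CON ASO livers. Of 9 regulators of mitochondrial biogenesis 0 were called (1), with a median of -0.04. *Pprc1*, a coactivator related to PGC-1alpha, was at 0.46 (limma adjusted p = 0.251).

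The cytosolic ribosomal proteins, which build the ribosomes of the cytosol, had a higher median. Their median log2 fold change was 0.22, with 74 of 79 tested genes above 0 and 45 whose groups were wholly above, and 1 was called, *Rps10* at 0.62 (limma adjusted p = 0.0432). Of all tested genes 55.6% were above 0, 13.8% were wholly above and 4.09% were called. *Rps10* was not called without MMAB ASO replicate 2 or 4, without CON ASO replicate 1 or 4, without a filter, with no trend or with the replicate block. Quantile normalization gave 7 calls in this list, with 3.67% of all tested genes called. Protein-coding sum scaling gave 13, with 5.47% of all tested genes called. The corresponding values for the mitochondrial ribosomal proteins were 0.04, 49 of 77 and 5. The nuclear subunits of oxidative phosphorylation, the complexes that the mitoribosome helps to build, had a median of 0.07, with 56 of 76 above 0, 6 wholly above and 0 called (1). These lists share the same 6 libraries, and no test of the difference between them was run.

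**Figure D5:**
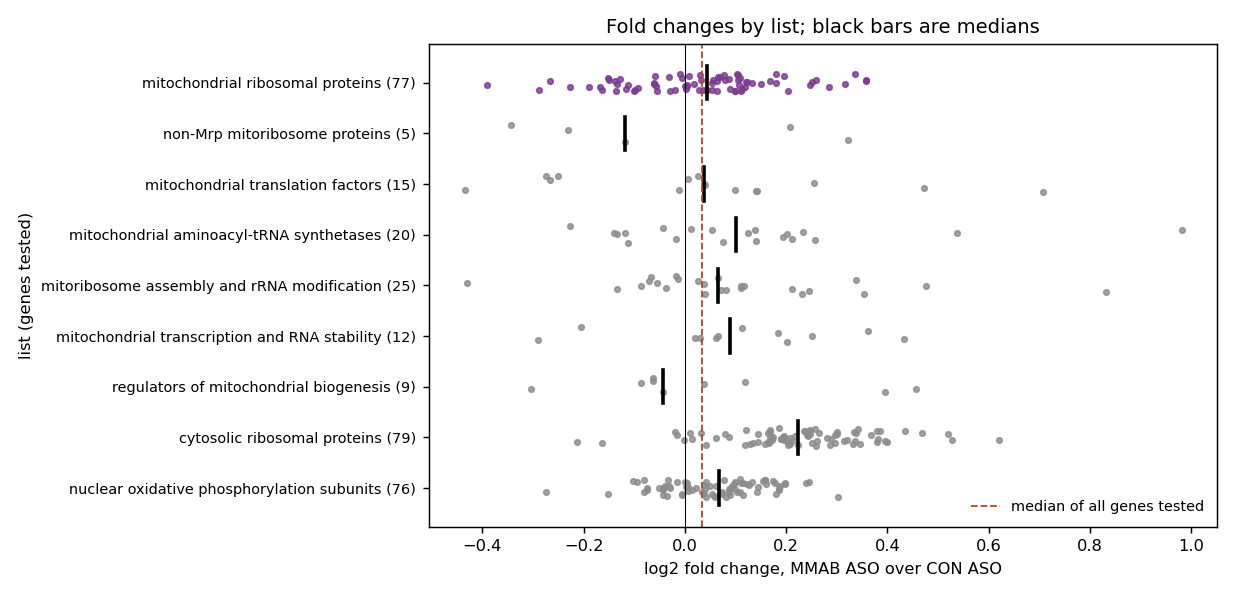
Log2 fold changes of MMAB ASO over CON ASO for the mitochondrial ribosomal proteins (purple) and other lists (grey), with the number of genes tested; points are genes, black bars are medians and the dashed line is the median of all tested genes (0.03). The mitochondrial ribosomal proteins centre at 0.04 and the cytosolic ribosomal proteins at 0.22.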

How the data were processed

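Liver RNA was ribosome-depleted and sequenced, and per the labels and the methods the reads were aligned with STAR in Partek software to mm10 and quantified with the Partek E/M algorithm, with an annotation that is not given in the sources used here. The labels give both 45 cycles and 100 base reads. The deposited values are log2 of counts scaled by the authors to the library total (CPM) with 0.0001 added, and all 6 columns were used. Between 66.3% and 67.3% of values up to 20 reads were whole multiples of 1 read to within 1%, so no count test was run. Genes with a mean of 1 CPM or more were fitted across the whole table with limma 3.58.1 in R 4.3.3 (trended variance prior, no covariates, Benjamini-Hochberg adjustment, two-sided). The GSA test of Partek, used by the authors, was not run. Positions follow the table, which matched GENCODE M21 on GRCm38 for 72 of 78 genes, with the end 1 base earlier. Copies were found with BLAST+ 2.17.0.

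The genes named are the 5 highest and 5 lowest log2 fold changes, the 3 highest and 3 lowest levels per kilobase, the gene under the filter, the *Mrps18* paralogs, *Mrps30*, *Mrps36*, *Mrpl58*, genes with overlapping rows or the largest ratio between libraries, the gene of smallest p in each list, and *Mmab*. Any other gene named was chosen after its values were seen. The members and lists were chosen with earlier results of these data known. Settings tried were pseudocounts of 0.1 and 1, no filter, a filter of 5 CPM, 3 other scalings, no trend, array weights, a block for the replicate number, leaving out each library and, added after the data were seen, copies summed with their gene. Intervals of 95% are limma confidence intervals of the log2 fold change. They rest on the spread between libraries, moderated across genes, and are not ranges of library values. Fits were tested on simulated data. Mitochondrially encoded genes were not analysed here.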

Additional observations from a re-analysis of the deposited data

How the results depend on the processing

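In none of the 17 alternative settings was a mitochondrial ribosomal protein gene called or past the study's thresholds. With limma, unadjusted p-values under 0.05 numbered from 0 (without CON ASO replicate 4) to 12 (protein-coding sum scaling), against 2. As shares these were 0% and 15.6% of the 77, against 16.4% and 25.99% of all tested genes. All 10 genes at the ends of the range kept their direction in every setting that gave them a value (*Mrpl48*, *Mrpl55*, *Mrps11* and *Mrps36* were under the filter of 5 CPM), and *Mrps5*, near 0 at 0.02, was at -0.0078 under median-ratio scaling, -0.0488 with array weights, -0.01 without MMAB ASO replicate 2 and between -0.0807 (CON ASO replicate 4 left out) and 0.1115 over all fits that left out 1 library. The median of the 77 genes moved between -0.03 and 0.10 when each library was left out, and that of all tested genes between -0.02 and 0.09.

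The count above 0 was 32 (without MMAB ASO replicate 2) to 58 over the fits that left out 1 library, against 49. In the same fits the count of genes whose groups were apart was 12 to 24. It was highest without CON ASO replicate 1 (31.2%, against 36.9% of all tested genes). Leaving out a library cannot make groups that were apart overlap, so these counts could not fall below 8. Groups were apart for 13 genes (16.9%, against 28.0% of all tested genes) under median-ratio scaling, 16 (20.8%, against 26.7%) under quantile normalization and 26 (33.8%, against 32.2%) under protein-coding sum scaling, against 8. Of all tested genes limma called 255 without a filter, 268 with a filter of 5 CPM and 768 with array weights, and 157 to 555 when each library was left out, lowest without MMAB ASO replicate 4 (157) and CON ASO replicate 4 (160).

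Under protein-coding sum scaling limma called 1 mitoribosome protein with another symbol (*Gadd45gip1*), 1 synthetase (*Vars2*), 1 assembly gene (*Mettl15*), 1 oxidative phosphorylation subunit (*Ndufa6*) and 13 cytosolic ribosomal proteins. *Vars2* was also called under median-ratio scaling (1), with array weights (1) and without CON ASO replicate 1 (0 to 1 over the fits that left out 1 library), *Mettl15* with no trend (1) and array weights (1), and *Ndufa6* under quantile normalization (1). Of cytosolic ribosomal proteins, 2 were called under median-ratio scaling, 7 under quantile normalization, 2 with array weights, and 0 without a filter, with no trend, with the replicate block, or without MMAB ASO replicate 2 or 4 or CON ASO replicate 1 or 4 (0 to 1 over the fits that left out 1 library). The median of the synthetases was 0.19 under protein-coding sum scaling, against 0.10.

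The replicate number as a block gave 430 called genes of all tested and 0 of the 77. Deviations of same-numbered libraries from their group means correlated at -0.02, 0.05 and -0.0055 (Pearson's r across 11565 genes, which are not independent), so the numbers were not taken to pair the libraries. The cause of these shifts was not tested. Precision was limited by 3 libraries in each group.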
